A study of Sus scrofa with 14 samples.

Results

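The glutathione S-transferases on the array were taken as the probes whose RefSeq accession belongs to a gene with a symbol starting with GSTA, GSTM, GSTO, GSTP, GSTT, GSTK, GSTZ or MGST. This gave 6 genes of 3020 named genes, GSTA1, GSTA4, GSTO1, GSTZ1, MGST1 and MGST3, with 14 probes of 43603. The reference lists 9 genes that meet the rule in the pig, and GSTK1, GSTM3 and MGST2 had no probe with a matching accession. The study's own list of affected pig genes added no member.

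The pig SISP model keeps pairs of small intestinal segments in place in anaesthetised piglets, with blood supply and innervation intact, and perfuses them from the lumen. Mucosal scrapings of 5-week-old male piglets were hybridised to 1-colour Agilent arrays after 6 h of perfusion, with 1 array per segment and 14 arrays of 7 pigs. Pigs 1, 2 and 4 each gave a segment perfused with saline digest (Sd), the control, and a segment perfused with yellow onion digest (YOd). Pigs 5, 6, 7 and 8 each gave an Sd segment and a segment perfused with white onion digest (WOd). All digests went through the same in vitro digestion, but per the study's methods the onion digests and the Sd digest were diluted to different degrees and in different fluids. The 2 onions were given to different pigs, and each group holds 1 segment per pig.

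Glutathione S-transferases couple the tripeptide glutathione to electrophilic compounds, which can then be exported from the cell and broken down to mercapturic acids. The cytosolic enzymes form classes such as alpha, mu, omega, pi, theta and zeta, while the microsomal enzymes belong to the MAPEG family of membrane proteins. Several of these genes are known targets of the transcription factor NRF2, and the intestinal epithelium is one of the tissues rich in them.

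Levels were expressed as log2 of the signal over the 75th percentile of the array, so that 0 is the level of that percentile. Levels were compared between arrays for 1 probe at a time and never between probes, whose brightness also depends on their sequence. Lists of cell type markers are the exception, where the levels of a list were summed on each array before the log2 was taken. All 14 probes exceeded the background clearly on every array, but many reached the ceiling of the scanner. Of the 6 transferase genes, 4 (66.7%) had a main probe that was saturated on some array, against 218 of 3020 named genes (7.22%). The probe of GSTO1 was saturated on all 14 arrays, that of MGST3 on 10 and that of GSTA1 on 7. A saturated spot gives only a lower bound of the signal, so the ratio of 2 saturated spots is no measure of the gene. The probes of GSTA4 and GSTZ1 and the MGST1 probes 5, 6 and 7 were saturated on no array.

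On each array, at least 50.05% and at most 70.7% of all probes exceeded the background clearly, and precision is limited by how many arrays there are. Markers of enterocytes were present throughout, with 8 of 8 measured markers above the floor on every array, although 6 of the 8 were saturated on every array. The Sd arrays of pigs 2 and 7 lay on another slide and in another scan session than the onion arrays of the same pigs. Pig 7 stood apart in a further way. On the array, 25 probes of any gene had only a high and a low level, at least 8-fold apart. The 2 arrays of pig 7 lay on opposite sides for 10 of these 25 probes, the 2 arrays of any other pig for 0 to 5, and arrays of different pigs for a median of 10 (range 2 to 18 over 84 pairs). Several values that rest on pig 7, but not all, are therefore given with and without it, and the cause was not tested.

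**Figure D1:**
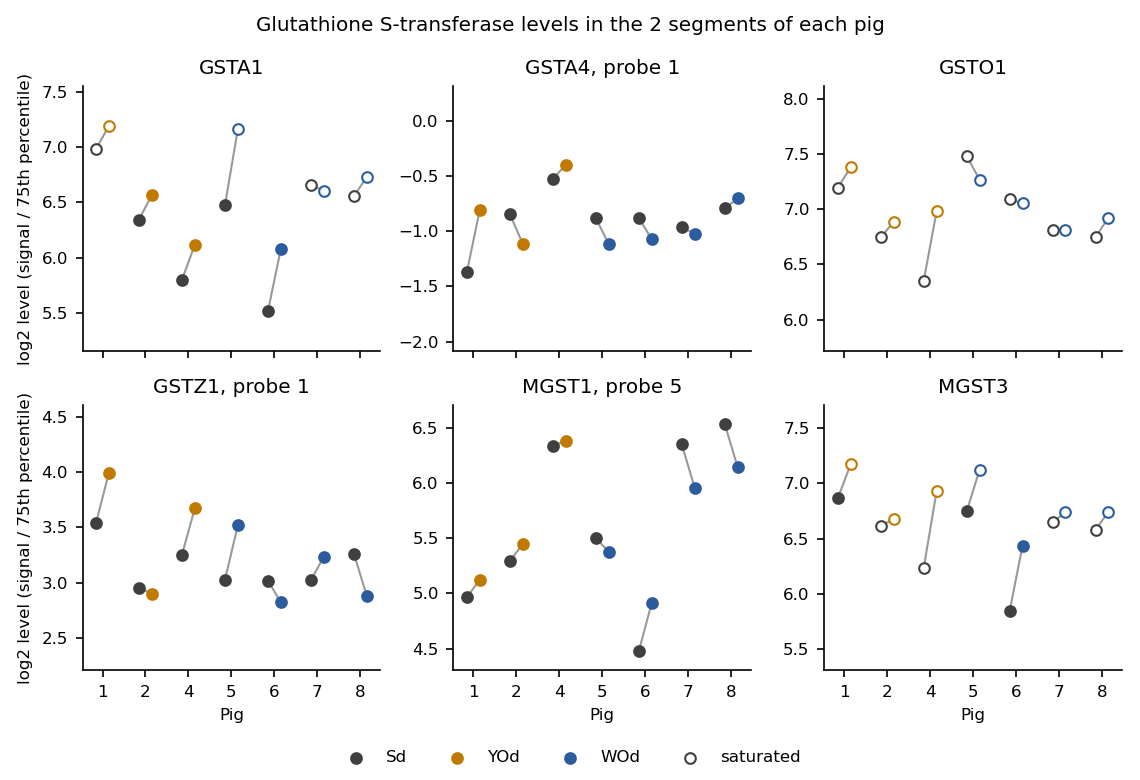
Level of 6 transferase genes, 1 probe each, in the Sd segment (grey) and the onion segment (YOd orange, WOd blue) of the 7 pigs, as log2 of the signal over the 75th percentile of the array, with a line joining the 2 segments of a pig and open circles for saturated spots. GSTO1 was saturated throughout, GSTA4 and GSTZ1 were measured below the ceiling on every array, and MGST1 probe 5 differed more between pigs than within them.

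GSTA1 encodes an alpha-class enzyme, a class of cytosolic transferases that also reduces lipid hydroperoxides. In the 3 pigs in which neither array was saturated, the log2 level was 6.35 with Sd and 6.57 with YOd in pig 2, 5.80 and 6.12 in pig 4, and 5.52 with Sd and 6.08 with WOd in pig 6. The level was higher with onion in all 3, with log2 ratios of 0.22, 0.32 and 0.56. The direction in pig 4 came with the scaling, since the signal before scaling was 44297 with Sd and 35802 with YOd. In pig 2 the signal before scaling was 50293 with Sd and 54001 with YOd, and its arrays lay on different slides. These signals were close to the ceiling, since the WOd spot of pig 7 was saturated at 54242. In pig 5 the level was 6.48 in the Sd segment and 7.16 in the WOd segment, where the spot was saturated, so that the ratio of 0.69 is at least 1.61-fold. Both arrays were saturated in pigs 1, 7 and 8, where the scaled ratios of 0.21, -0.05 and 0.17 carry no information on the gene. Over all 7 pigs, onion over Sd was 0.30 on the log2 scale by limma, or 1.23-fold (standard error 0.11, 95% interval 0.06 to 0.55, adjusted p = 0.63). These values include the 3 pairs with both spots saturated and are no estimate of the gene's change over 7 pigs. All genes together had a median of 0.08 in this fit, and without scaling of the arrays the value for GSTA1 was 0.15. Without pig 7 it was 0.36 (limma, adjusted p = 0.35), and with the slide as a further block 0.39 (limma, adjusted p = 0.395).

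GSTA4, the other alpha-class gene, encodes an enzyme known for conjugating 4-hydroxynonenal, an end product of lipid peroxidation. In the reference, GSTA1 and GSTA4 lie on the same chromosome with 3 listed genes between them. In the 7 Sd segments the level of GSTA4 probe 1 was lowest in pig 1 (-1.37) and highest in pig 4 (-0.52), with a median of -0.88. It was -0.81, -1.11 and -0.40 in the YOd segments of pigs 1, 2 and 4, and -1.12, -1.07, -1.02 and -0.70 in the WOd segments of pigs 5, 6, 7 and 8. The groups overlapped, and the pig with the lowest Sd level had the largest ratio.

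Within pigs, GSTA4 probe 1 had log2 ratios of 0.56, -0.27 and 0.12 with YOd, and of -0.24, -0.19, -0.06 and 0.09 with WOd. Before scaling, its signal was lower with onion in pig 4 (553 with Sd, 390 with YOd) and in pig 8 (359 with Sd, 337 with WOd). The level was higher with onion in 3 of 7 pigs, and limma gave a fold change of 1.00 for this probe over the 7 pigs (95% interval 0.835 to 1.20, adjusted p = 0.995). GSTA4 probe 2 correlated with probe 1 over the 14 arrays (Pearson's r = 0.90) and was higher with onion in 5 of 7 pigs, with a mean log2 ratio of 0.21 (standard error 0.12, exact sign-flip permutation p = 0.125). For probe 2 in pig 4, the signal before scaling was lower with onion, at 265 with Sd and 211 with YOd. Both probes were measured below the ceiling on every array.

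GSTO1 encodes an omega-class enzyme, which acts mainly as a thioltransferase and dehydroascorbate reductase rather than on the usual conjugation substrates. Its signal stood at the ceiling on every array, and neither a ratio nor a ranking of pigs can be given. It was 1 of 79 named genes of 3020 (2.62%) whose main probe was saturated on all arrays.

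GSTZ1 encodes the zeta-class enzyme maleylacetoacetate isomerase, which acts in the breakdown of tyrosine. The level of GSTZ1 probe 1 ranged from 2.95 to 3.54 in the 7 Sd segments, with a median of 3.03. It was 3.99, 2.90 and 3.68 in the YOd segments and 3.52, 2.82, 3.23 and 2.88 in the WOd segments. YOd pigs 1 and 4 lay above all Sd segments, YOd pig 2 and WOd pigs 6 and 8 lay below all of them, and WOd pigs 5 and 7 lay within their range. The log2 ratios were 0.45, -0.05 and 0.42 with YOd and 0.49, -0.20, 0.21 and -0.38 with WOd. The direction in pig 4 came with the scaling, since the signal before scaling was 7572 with Sd and 6585 with YOd. In YOd/Sd, limma gave 0.27 (standard error 0.16, 95% interval -0.12 to 0.67, adjusted p = 0.406), beside a median of 0.14 over all genes. In WOd/Sd it gave 0.03 (95% interval -0.42 to 0.48, adjusted p = 0.998), and -0.03 without pig 7. GSTZ1 probe 2 (r = 0.84 with probe 1) gave 0.28 in YOd/Sd, against -0.03 in WOd/Sd. Of 9 enteroendocrine markers, 5 were measured and none was at the floor on any array. The log2 of their summed levels, in which the brightest probes weigh most, was 4.15 to 5.42 in Sd, 4.96 to 6.06 in YOd and 4.47 to 5.47 in WOd segments. The log2 ratios of the sum were 0.90, -0.04 and 0.59 in pigs 1, 2 and 4 and 0.22, 0.17, 0.32 and -0.25 in pigs 5, 6, 7 and 8, while GCG of this list had -0.29 in YOd/Sd and was lower in 3 of 3 pigs. Some other lists were higher in pigs 1 and 4 as well, with 0.73 and 0.43 for lymphocyte markers and 0.49 and 0.54 for those of fibroblasts and endothelium. Myeloid and mast cell markers had 0.22 and 0.50, but LYZ of this list was saturated on 12 arrays. Enterocyte markers had 0.15 and 0.63, which are no measure of these genes, since all 8 were saturated on some array and 6 on every array. Goblet, crypt and smooth muscle markers had 0.10, 0.22 and 0.24 in pig 1 and -0.11, -0.16 and -0.23 in pig 4. The part of any of these cells in the values of GSTZ1 was not tested. In scrapings, fewer cells of a type and less RNA per cell cannot be told apart.

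MGST1 encodes a microsomal enzyme of the endoplasmic reticulum and outer mitochondrial membrane with transferase and peroxidase activity. It had 7 probes, of which 1 to 4 were saturated on some arrays. Probe 5, the brightest of those never saturated, read 4.97, 5.29 and 6.34 in the Sd segments of pigs 1, 2 and 4, and 5.12, 5.45 and 6.38 in their YOd segments. In pigs 5, 6, 7 and 8 it read 5.50, 4.47, 6.35 and 6.53 in the Sd segments, and 5.38, 4.91, 5.96 and 6.15 in the WOd segments. The order of the pigs was the same in Sd and onion segments for pigs 1, 2 and 4, and the levels of pigs 4, 7 and 8 stood above those of the other pigs in both segments.

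The median absolute log2 difference of MGST1 probe 5 was 1.03 between Sd segments of different pigs and 0.16 between the segments of a pig. Over all genes tested these medians were 0.41 and 0.23. Its log2 ratios were 0.16, 0.15 and 0.05 in the YOd pigs, higher in 3 of 3. In the WOd pigs they were -0.13, 0.44, -0.39 and -0.39, higher in 1 of 4. The direction in pigs 1 and 4 came with the scaling. The signal before scaling was 14084 with Sd and 13849 with YOd in pig 1, and 64205 and 42986 in pig 4. By limma the log2 fold change of probe 5 was 0.12 (standard error 0.14, adjusted p = 0.664) in YOd/Sd and -0.12 (standard error 0.19, adjusted p = 0.999) in WOd/Sd. Their difference was 0.24 (95% interval -0.32 to 0.79, limma adjusted p = 0.897). Without pig 7, the mean log2 ratio of probe 5 in the WOd pigs was -0.03. MGST1 probe 1, which had the highest mean and stood for the gene in the fits, was saturated on both arrays of 4 pigs and gave 0.21 in YOd/Sd and 0.12 in WOd/Sd.

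**Figure D2:**
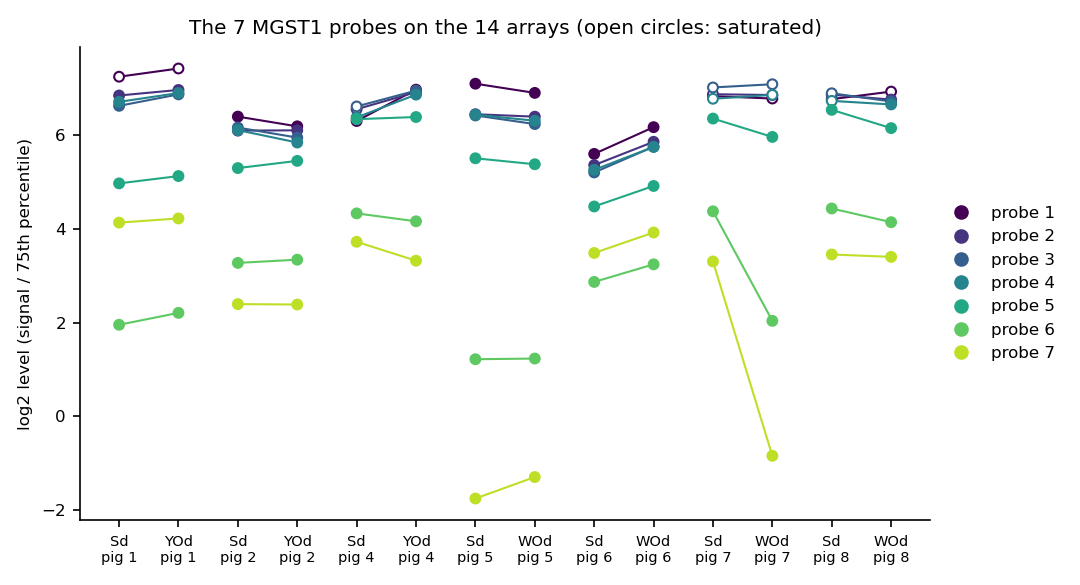
Level of the 7 MGST1 probes on the 14 arrays, as log2 of the signal over the 75th percentile of the array, with the Sd and onion array of each pig joined by a line and open circles for saturated spots. Probes 1 to 4 ran together near the ceiling, while probes 6 and 7 were low in both segments of pig 5 and, of the segments of pig 7, only in the WOd segment.

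The 7 probes, which share 1 accession, did not measure 1 common level. Probes 2, 3 and 4 correlated with each other over the 14 arrays with Pearson's r of 0.98 to 0.99, and with probe 5 with r of 0.65 to 0.75. Probe 7 correlated with probe 6 (r = 0.66), but with probes 1 to 5 only with r of -0.17 to 0.01. Probe 6 also correlated with probe 5 (r = 0.61), but with probes 1 to 4 only with r of -0.29 to 0.19. For probes 1 and 5, r was 0.30. These values are descriptions, since the arrays of a pig are not independent. Probe 7 read -1.75 and -1.29 in the Sd and WOd segments of pig 5 and -0.84 in the WOd segment of pig 7, and between 2.38 and 4.22 on the other 11 arrays. Probe 6 read 1.22 and 1.23 in pig 5 and 4.37 and 2.04 in pig 7. The probe sequences were not used here, so the cause of the differences among the 7 probes was not tested.

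In pig 7 the log2 ratio of WOd over Sd was -4.15 for MGST1 probe 7 and -2.34 for probe 6, against -0.39 for probe 5. In the other 6 pigs the ratios of probe 7 ranged from -0.40 to 0.46 and those of probe 6 from -0.29 to 0.38. Pig 7 alone set the mean ratio of probe 7, which was -0.52 over the 7 pigs and 0.09 without pig 7 (exact sign-flip permutation p = 0.469, where 0.0313 is the smallest p possible with 6 pigs). The large difference between 2 segments of a pig was thus seen for these probes in pig 7 only. Probe 7 is itself among the 25 probes with a high and a low level, and among the 10 on which the arrays of pig 7 lay on opposite sides. That count is therefore no separate observation from the ratio of probe 7.

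MGST3 encodes a microsomal enzyme with peroxidase and leukotriene C4 synthase activity. Both segments were measured below the ceiling in pig 6 only, where the log2 level was 5.84 with Sd and 6.44 with WOd, a 1.51-fold difference. In pigs 1 and 5 the Sd spot was measured, at 6.86 and 6.75, and the onion spot was saturated, at 7.17 and 7.12, so that the ratios were at least 1.24-fold and 1.30-fold. In the other 4 pigs both spots were saturated. All 3 pigs with a measured Sd spot thus had the higher signal with onion, and the rest gave no information. This count favours a higher onion signal, since only pigs with an Sd spot below the ceiling entered it. In pigs 1 and 5 the onion spot was at the ceiling.

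With the saturated spots entered at their scaled values, the log2 fold change of MGST3 by limma was 0.33, or 1.25-fold (standard error 0.11, adjusted p = 0.63). This value includes the 4 pairs that gave no information. In pigs 2 and 8, of these 4, the signal before scaling was lower with onion, at 60740 with Sd and 58036 with YOd in pig 2 and at 59655 with Sd and 58628 with WOd in pig 8. With quantile normalization the value was 0.15 and without scaling 0.18. MGST3 and GSTA1, the members that passed by the unadjusted p, were saturated on 10 and 7 of the 14 arrays.

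**Figure D3:**
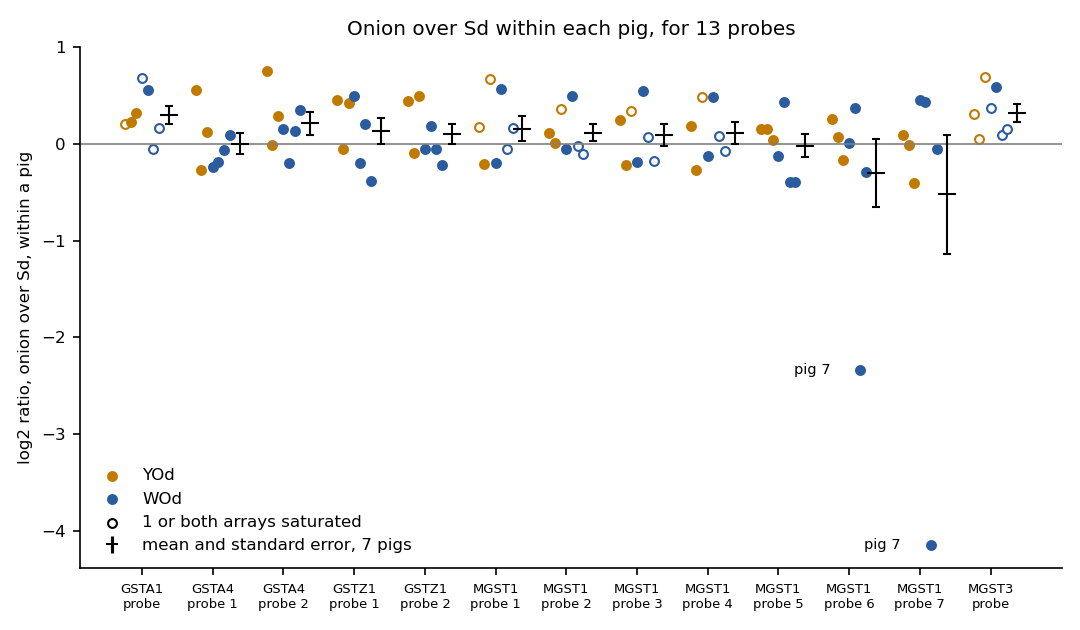
Log2 ratio of the onion over the Sd segment within each of the 7 pigs for 13 transferase probes (GSTO1, saturated throughout, is left out), YOd in orange, WOd in blue and open circles where 1 or both spots were saturated; bars give the mean and its standard error. Most ratios lay between -0.5 and 0.8, apart from MGST1 probes 6 and 7 in pig 7 at -2.34 and -4.15.

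A gene was called affected when its unadjusted p from limma was under 0.05 and its change was over 1.5-fold in either direction. Of the 6 transferase genes, 0 were affected in YOd/Sd, where 4.63% of 2464 genes were, and 0 in WOd/Sd, where 1.18% of 2467 genes were. In onion over Sd, 0 of 6 were affected beside 1.22% of 2453 genes, and for the difference between the onions, taken as YOd/Sd minus WOd/Sd, 0 of 6 beside 3.64% of 2553 genes. By the unadjusted p alone, 2 of the 6 genes passed in onion over Sd, beside 6.85% of all genes, namely GSTA1 and MGST3 with their saturated pairs entered. None of the 6 did in YOd/Sd (11.2% of all genes), WOd/Sd (2.76%) or the difference between the onions (4.31%). After Benjamini-Hochberg adjustment across all named genes, limma left 0 genes of any kind under 0.05 in each comparison. With shares this low, 0 of 6 genes is close to the background.

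The fold changes of the 5 genes other than GSTO1 ranged from 0.14 to 0.35 on the log2 scale in YOd/Sd and from -0.10 to 0.34 in WOd/Sd. The medians over all genes were 0.14 and 0.04. Values of GSTA1, MGST1 and MGST3 include saturated spots, so neither the upper ends (MGST3 and GSTA1) nor the other values of these genes estimate their change. GSTA4 and GSTZ1, never saturated, had 0.14 and 0.27 in YOd/Sd and -0.10 and 0.03 in WOd/Sd. Without scaling, the median of all genes in YOd/Sd moved to -0.16, and GSTA1, GSTA4, GSTZ1, MGST1 and MGST3 then had values of -0.06, -0.17, -0.04, -0.10 and 0.04. The difference between the onions was -0.09 for GSTA1, 0.24 for GSTA4 and for GSTZ1, 0.09 for MGST1 and 0.05 for MGST3, beside a median of 0.10. The MGST1 value is that of probe 1, while probe 5, never saturated, gave 0.24. No gene's interval for this difference excluded 0, and the widest reached from -0.53 to 0.72 (MGST1).

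Relatives that share the fold of the transferases or the MAPEG membrane domain were represented by 4 measured genes of 18 listed. They were ALOX5AP, which presents arachidonic acid to 5-lipoxygenase, PTGES, a prostaglandin E synthase, EEF1E1, a factor of the aminoacyl-tRNA synthetase complex, and CLIC5, a chloride intracellular channel protein. None of the 4 passed both thresholds in any comparison. In YOd/Sd the log2 fold changes were 0.45 for ALOX5AP (3 of 3 pigs higher), 0.28 for PTGES, 0.18 for EEF1E1 and -0.02 for CLIC5. In WOd/Sd the 4 values lay between 0.04 and 0.12.

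Glutathione supply and use were covered by 3 lists. Of the synthesis genes, 3 of 16 were tested and 0 were affected. GCLM, the modifier subunit of the rate-limiting enzyme of glutathione synthesis, had log2 fold changes of 0.42 in YOd/Sd (3 of 3 pigs higher) and -0.07 in WOd/Sd, or 0.22 without pig 7. Of the genes that export or break down conjugates, 4 of 14 were tested and 0 were affected, and ANPEP, an aminopeptidase of the brush border, was saturated on all arrays. Without pig 7, DPEP1, a dipeptidase that cleaves cysteinylglycine, passed both thresholds downward. Its log2 fold change in WOd/Sd was -0.71 with pig 7 and -1.12 without it, where 1.77% of all genes were downregulated. In onion over Sd it was -0.53 with and -0.70 without pig 7, where 0.57% of all genes were downregulated.

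Of the other users of glutathione or its relatives, 9 of 18 were tested. GPX2, the gastrointestinal glutathione peroxidase, was the 1 gene of these upregulated in WOd/Sd, where 0.77% of all genes were. Its level rose from -2.02 to -1.39 in pig 5, from -3.31 to -3.04 in pig 6, from -4.29 to -3.07 in pig 7 and from -3.42 to -2.88 in pig 8. The Sd level of pig 7, which had the largest ratio, lay close to the floor of -4.43. The WOd and Sd segments overlapped between pigs, but the level was higher with WOd in 4 of 4 pigs. The limma log2 fold change was 0.67 (standard error 0.19, adjusted p = 0.998). Without pig 7 it was 0.48 and below the fold threshold, and with normexp background correction it was 0.26. In YOd/Sd the value of GPX2 was -0.21, with log2 ratios of 0.44, -0.02 and -1.06 in pigs 1, 2 and 4, so only pig 4 was clearly lower. GPX2 was also the 1 gene of the 9 to pass both thresholds for the difference between the onions, with -0.88. By these thresholds, 1.29% of all genes were higher with WOd. Without pig 7 this difference was -0.69 and did not pass.

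**Figure D4:**
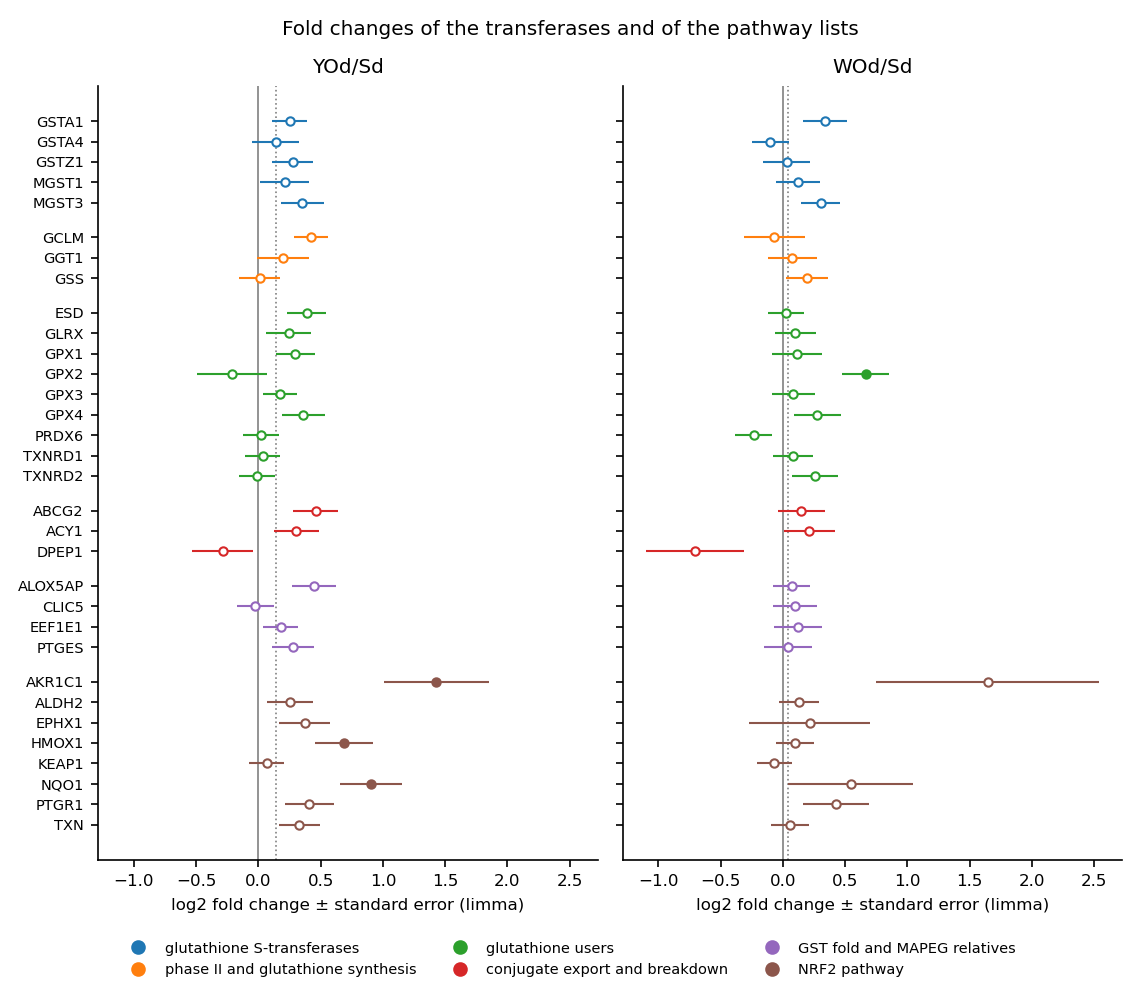
Log2 fold change with its standard error from limma in YOd/Sd (left, 3 pigs) and WOd/Sd (right, 4 pigs) for 5 transferases and the measured genes of the pathway lists, with filled circles for genes past both thresholds, a dotted line at the median of all genes, and GSTO1 and ANPEP, saturated on all arrays, left out. The transferases lie between 0.14 and 0.35 in YOd/Sd and between -0.10 and 0.34 in WOd/Sd, where the dotted lines stand at 0.14 and 0.04. Values of GSTA1, MGST1 and MGST3 include saturated spots and are no estimate of the change of these genes. The filled circles are AKR1C1, HMOX1 and NQO1 in YOd/Sd and GPX2 in WOd/Sd.

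The NRF2 list, the regulators and other target genes of the factor, had 8 of 16 genes tested, of which 3 were upregulated in YOd/Sd, beside 3.65% of all genes, and 0 in WOd/Sd, beside 0.77% of all genes. AKR1C1, an aldo-keto reductase, had a log2 fold change of 1.43 (standard error 0.42), NQO1, a quinone reductase, of 0.90 (standard error 0.25) and HMOX1, the inducible haem oxygenase, of 0.69 (standard error 0.23), each with a limma adjusted p of 0.387. Whether the AKR1C1 probe also binds near-identical AKR1C genes was not tested, and TXN and ALDH2 of this list were saturated on 12 and 6 arrays. None of the 3 passed without scaling of the arrays (1.12 for AKR1C1, 0.59 for NQO1 and 0.38 for HMOX1) or with the authors' values (1.37, 0.84 and 0.63). The calls also rested on few pigs. HMOX1 and AKR1C1 did not pass without pig 4 (0.35 and 1.44), NQO1 did not pass without pig 1 (0.68) or pig 4 (0.75), and AKR1C1 without pig 1 was 0.80. Without pig 2 the 3 values were 2.05 for AKR1C1, 1.28 for NQO1 and 0.87 for HMOX1. The list had a median of 0.39 in YOd/Sd, against 0.17 in WOd/Sd. In pig 7 the log2 ratios of AKR1C1 and NQO1 were -2.31 and -1.65, whereas in pigs 5, 6 and 8 they lay between 2.24 and 3.35 and between 1.16 and 1.49. When pig 7 was left out, AKR1C1 reached 2.96 and NQO1 1.27 in WOd/Sd, and 4 of the 8 genes passed both thresholds, these and EPHX1 (0.90), an epoxide hydrolase, and PTGR1 (0.69), a prostaglandin reductase, beside 1.82% of all genes upregulated without pig 7. In onion over Sd, AKR1C1 was the 1 gene of the list to pass (0.938% of all genes were upregulated there), with 1.55 over the 7 pigs and 2.20 without pig 7. It did not pass without pig 1, 4, 5, 6 or 8 (1.25 to 1.58), nor without scaling (1.40). Without pig 7, NQO1 (1.09) and EPHX1 (0.64) passed as well, beside 1.47% of all genes. In pigs 5, 6 and 8, GSTA4 probe 1 had ratios of -0.24, -0.19 and 0.09 and GSTZ1 probe 1 of 0.49, -0.20 and -0.38. GSTA4 probe 2 had 0.16, -0.20 and 0.35, and MGST1 probe 5 had -0.13, 0.44 and -0.39. GSTA1 had at least 0.69 in pig 5 and 0.56 in pig 6. MGST3 had at least 0.38 in pig 5 and 0.59 in pig 6. In pig 8, GSTA1 and MGST3 were saturated in both segments. In pig 1, which had the largest AKR1C1 ratio of the YOd pigs (2.69), the ratios of GSTA4 probe 1 and GSTZ1 probe 1 were 0.56 and 0.45. There GSTA4 probe 2 had 0.76, MGST1 probe 5 had 0.16 and MGST3 had at least 0.31, while GSTA1 was saturated in both segments.

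For the members other than MGST3, the 3 genes with the most similar level over the 14 arrays were taken from 2182 genes above the floor on all arrays, by Pearson's r. For GSTZ1 they were UCHL3 (r = 0.92), C7H6orf125 (0.91) and CHGB (0.91), and for GSTA4 CHGA (0.72), CLDN19 (0.71) and SUV39H2 (0.68). CHGA and CHGB encode chromogranins of endocrine cell granules. For GSTZ1 probe 2 the 3 genes were NR1I3 (0.98), ASPA (0.96) and HEBP1 (0.95), with no chromogranin among them. For GSTA4 probe 2 they were RAB32 (0.78), PPP1R11 (0.77) and CHGA (0.74). For MGST1 probe 5 they were TBC1D20 (0.87), ACADM (0.84) and CD86 (0.83). GSTA1 was most like MGST3 (0.87), followed by CFL2 and AKIRIN1. MGST1 probe 1 was most like SORD (0.96), ATP5O and ALDH2. The genes most like GSTO1, namely SELENOP, SLA-3 and RBP2, were saturated on all 14 arrays as well, so their likeness is no measure of these genes. The arrays of a pig are not independent and the arrays share their scaling, so these values describe the 14 arrays only.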

How the data were processed

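The transferases and the pathway lists were chosen with earlier results of these data known. For the 14 arrays, the authors deposited spot-level output of Feature Extraction, from which the processed signal was used, a linear intensity already corrected for background and spatial trend, with the flags for outlier and saturated spots. They also deposited a table of log2 values, which served as an alternative. Its normalization is not given in the sources used here. Outlier spots (5 to 462 of 43803 per array) were removed, and repeated spots of 1 probe were averaged. Each array was scaled to the 75th percentile of its signals, a floor was set at the pooled 40th percentile (-4.43 on the log2 scale), and values were then converted to log2. Symbols came from the RefSeq accession, with 6686 of 43603 probes matched. Where a gene had several probes, the brightest on average represented it. Genes had to exceed the floor on at least as many arrays as there were in the smaller group.

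The named genes were all transferases with all their probes, the measured relatives of the transferase fold and the MAPEG family, every gene of the pathway lists past the thresholds in YOd/Sd, WOd/Sd or onion over Sd, and for each member the 3 most alike genes, which for MGST3 are not reported here. GCLM, DPEP1, ANPEP, GCG, EPHX1, PTGR1, TXN and ALDH2 were named after their values were seen.

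YOd/Sd, WOd/Sd, onion over Sd and the difference between the onions were each fitted on all named genes by limma (version 3.58.1, R version 4.3.3). Pig was a block, following the paired design of the study. After subtraction of group means, r between the segments of a pig lay between 0.50 and 0.72 over 2400 genes. The p-values of limma rest on how the difference between the segments of a pig varies over pigs, moderated across genes, with 1 segment per condition. Intervals are those of limma at 95%. Fits were tested on simulated data. Alternatives covered normalization, background correction, floor, filter, probe, the authors' values, the blocks and each pig left out. The probe saturated on no array was added as an alternative after seeing the data. The remaining steps used Python 3.11.15. Pig 3 was not analysed here.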

Additional observations from a re-analysis of the deposited data

Results flagged for a closer look

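In 52 groups of levels or ratios, 5 values lay far from the others of their group (chance gives about 1 in 20, or 5%). Of these, 4 concern the MGST1 probes 6 and 7. The log2 ratio of probe 7 in pig 7 was -4.15, far from the other 6 pigs and from the other WOd pigs, and that of probe 6 in pig 7 was -2.34. The level of probe 7 in the Sd segment of pig 5 was -1.75, far below the other Sd segments. The log2 ratio of MGST1 probe 2 in pig 6 was 0.50, above the other WOd pigs. None of the causes was tested.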

How the results depend on the processing

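For GSTA1, GSTA4, GSTZ1, MGST1 and MGST3, 365 values were computed under the alternatives. Of these, 325 kept their direction and 40 changed it, and none passed both thresholds, so that the count of 0 affected transferases did not depend on the alternatives run. Many of the 325 could not have changed direction. The floor, the filter and leaving out the pig block do not move the fold change of genes this far above the floor. GSTA1 and MGST3 had no other probe, so the alternatives on the choice of probe left their fold changes as they were. GSTA1 in onion over Sd and WOd/Sd, and MGST3 in these and in YOd/Sd, kept their direction throughout. For values near 0 a change of direction is a small move.

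Without scaling between arrays, the log2 values in YOd/Sd were -0.058 for GSTA1, -0.17 for GSTA4, -0.035 for GSTZ1 and -0.097 for MGST1. In onion over Sd they were -0.15 for GSTA4 and -0.016 for GSTZ1, and in WOd/Sd -0.00081 for GSTZ1. The difference between the onions was -0.040 for GSTA4, -0.034 for GSTZ1, -0.19 for MGST1 and -0.23 for MGST3. With quantile normalization, GSTA4 was -0.0023 in onion over Sd, MGST1 was -0.041 in YOd/Sd, and the difference between the onions was -0.076 for MGST1 and -0.085 for MGST3. With normexp, GSTZ1 was -0.0027 in WOd/Sd, and the difference was -0.0014 for MGST1 and -0.022 for MGST3. With the authors' values, GSTA4 was -0.0195 in onion over Sd and the difference for MGST3 was -0.0215. With the mean of the probes of a gene, WOd/Sd was 0.0056 for GSTA4, -0.00044 for GSTZ1 and -0.16 for MGST1, and onion over Sd was -0.051 for MGST1. With the MGST1 probe saturated on no array, MGST1 was -0.12 in WOd/Sd and -0.016 in onion over Sd. With the slide as a block, GSTZ1 was -0.030 in WOd/Sd.

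With each pig left out in turn, GSTA4 ranged from -0.073 to 0.34 in YOd/Sd and from -0.091 to 0.048 in onion over Sd, GSTZ1 from -0.12 to 0.17 in WOd/Sd, and MGST1 from -0.016 to 0.42 in YOd/Sd and from -0.028 to 0.23 in WOd/Sd. The difference between the onions ranged from -0.22 to 0.025 for GSTA1, from -0.14 to 0.30 for MGST1 and from -0.12 to 0.20 for MGST3.

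The number of affected genes among all named genes was less stable. In YOd/Sd, the 114 became 63 with quantile normalization, 66 with normexp, 20 without a filter, 1300 with every probe, 7 with the authors' values, 20 with no replicate block and 329 with the slide as a block. Leaving out a pig gave 57 (pig 1), 329 (pig 2) and 59 (pig 4). In WOd/Sd, the 29 became 13 with normexp, 51 with the floor at the 20th percentile, 17 without a filter, 339 with every probe, 11 with the authors' values, 10 with no replicate block and 91 with the slide, and 44 (pig 6) to 89 (pig 7) with a pig left out. In onion over Sd, the 30 became 16 without scaling, 19 with normexp, 47 with the lower floor, 223 with every probe, 15 with the authors' values, 11 with no replicate block and 80 with the slide, and 17 (pig 1) to 50 (pig 7) with a pig left out. For the difference, the 93 became 51 with normexp, 47 without a filter, 1601 with every probe, 38 with the authors' values, 5 with no replicate block and 197 with the slide, and 44 (pig 4) to 157 (pig 2) with a pig left out. By limma with Benjamini-Hochberg values, 77 genes passed in YOd/Sd without pig 2 and 2 in WOd/Sd without pig 7. Without scaling, 7 of the 102 genes of YOd/Sd were upregulated, against 90 of 114 with it. The causes were not tested.

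Saturation limits GSTA1, GSTO1, MGST3 and the MGST1 probes 1 to 4. Pigs 2 and 7 had their Sd array on another slide than their onion array, and the slide as a block leaves these pigs without weight in the fold changes. In YOd/Sd it thus gives the fold changes without pig 2, and in WOd/Sd those without pig 7.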
